A study of Mus musculus with 18 samples.

Results

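The 89 genes described here encode the nuclear part of the oxidative phosphorylation machinery of mitochondria and were followed across 18 arrays of mouse medulloblastoma, a tumour of the cerebellum. They are all genes on the array whose symbol begins with Nduf, Uqcr, Cox4 to Cox8 or Atp5, or is Sdha, Sdhb, Sdhc or Sdhd, and whose probe set carries a single gene symbol. They make up 89 of the 19938 genes measured. Of them, 81 are subunits, 7 are complex I assembly factors (Ndufaf1 to Ndufaf7) and 1 is Cox7a2l, which helps join complexes into supercomplexes. The subunits divide into 34 of complex I, 4 of complex II, 8 of complex III, 18 of complex IV and 17 of ATP synthase. Complex IV includes Ndufa4 and its relative Ndufa4l2, which carry a complex I name but are placed with cytochrome c oxidase.

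Total RNA was hybridised to Affymetrix Gene ST 1.0 arrays. The 5 groups were 4 GFD-Smo;GFAP-cre tumours, 4 NG-Smo;Atoh1-CreER tumours, 4 GFI-Ptch tumours, 2 GFD-Ptch tumours and 4 NG-Ptch tumours. They are called GFD-Smo, NG-Smo, GFI-Ptch, GFD-Ptch and NG-Ptch below. Ptch is the Hedgehog receptor that restrains the signal transducer Smo, and unrestrained Hedgehog signalling drives medulloblastoma from granule neuron progenitors. The labels name 3 tumour subtypes, NG, GFD and GFI, without spelling out the letters, and they give neither the Ptch or Smo alleles nor the ages. Atoh1-CreER is an inducible Cre under the promoter of Atoh1, a gene of granule neuron progenitors. GFAP-cre is a Cre under the promoter of a glial gene that is also active in neural stem cells. Subtype and Cre driver cannot be told apart among the Smo tumours. All those of GFD subtype carry GFAP-cre and all those of NG subtype carry Atoh1-CreER. The Ptch group names hold no Cre, so model and Cre driver cannot be told apart between Smo and Ptch tumours. GFI-Ptch replicate 4 is described as progressed from an earlier tumour, in a female NSG host, which is an immunodeficient mouse. Nothing in the labels says that replicates came from separate animals, so p-values measure the spread between these samples.

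Oxidative phosphorylation moves electrons from NADH (complex I) and succinate (complex II) through complex III to oxygen at complex IV, and ATP synthase uses the proton gradient built on the way. Each complex except complex II mixes subunits of nuclear and mitochondrial genes. Some complex IV subunits exist as a widely expressed form and a form restricted to muscle, lung or testis. The 8 isoforms listed here as tissue-restricted also include Ndufa4l2, the relative of Ndufa4. Proliferating granule neuron progenitors and Hedgehog-driven tumours are known for strong aerobic glycolysis.

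Values are deposited log2 intensities, so a difference of 1 stands for a 2-fold signal. Each probe set has its own brightness, so a gene's place among all genes describes signal and not the amount of RNA. The array medians of all probe sets lay between 7.74 and 7.87. The granule neuron progenitor markers averaged between 11.27 and 11.91 on every array. Y-linked genes averaged 9.84 on both GFD-Ptch arrays and 5.40 to 5.47 on the NG-Ptch arrays. On GFD-Smo replicates 1 to 4 they averaged 5.48, 10.05, 5.48 and 5.45. Sex and subtype thus cannot be told apart between GFD-Ptch and NG-Ptch tumours. Of 13 arrays with a stated gender, 3 had a level of Y-linked genes that went against the label (GFD-Smo replicates 2 and 3 and GFI-Ptch replicate 4), and the main counts are also given without them. NG-Smo replicate 4 and GFI-Ptch replicate 4 stood apart from their groups for many genes and are treated in the same way. In bulk tumour RNA, fewer cells of a type and less RNA per cell cannot be told apart. Differences were tested with limma over all 19938 genes, and a gene was called at a Benjamini-Hochberg adjusted p under 0.05.

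The probe sets of the respiratory genes were mostly bright among those of all genes, and their levels lay higher on most Smo than Ptch arrays. Of the 89, 59 had a mean above 9.81, the upper quartile of all genes, and 79 lay above the median of 8.21. The median over the 89 genes was 10.91, 10.89, 10.98 and 10.82 in the GFD-Smo tumours. It was 10.84, 10.83, 10.83 and 10.41 in the NG-Smo tumours, where replicate 4 was the lowest of all 18 arrays. It was 10.65, 10.54, 10.44 and 10.63 in the GFI-Ptch tumours, and 10.47 and 10.61 in the GFD-Ptch tumours. It was 10.61, 10.62, 10.76 and 10.63 in the NG-Ptch tumours. Every GFD-Smo array and 3 of the 4 NG-Smo arrays thus lay above every Ptch array. GFD-Smo replicate 3 held the highest value of 41 of the 89 genes, and NG-Smo replicate 4 held the lowest of 18.

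**Figure D1:**
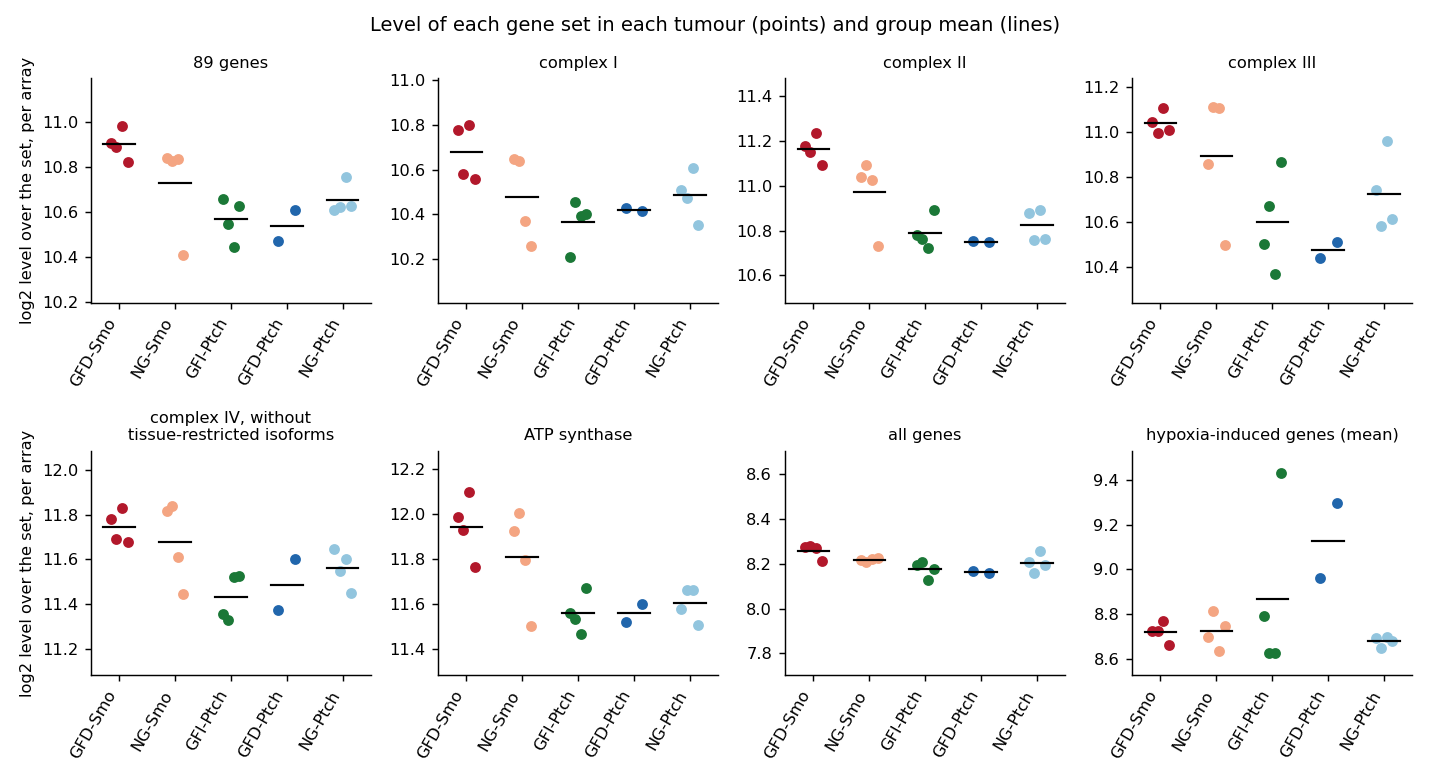
Log2 level of each gene set on each of the 18 arrays (points) with the group means (lines), by group from GFD-Smo to NG-Ptch. Panels show the median of the 89 genes, of each complex and of all genes, and the mean of the hypoxia-induced genes. The GFD-Smo arrays lie between 10.82 and 10.98 for all 89 genes together, NG-Smo replicates 1 to 3 between 10.83 and 10.84, and NG-Smo replicate 4, at 10.41, lies below the other arrays of its group.

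**Figure D2:**
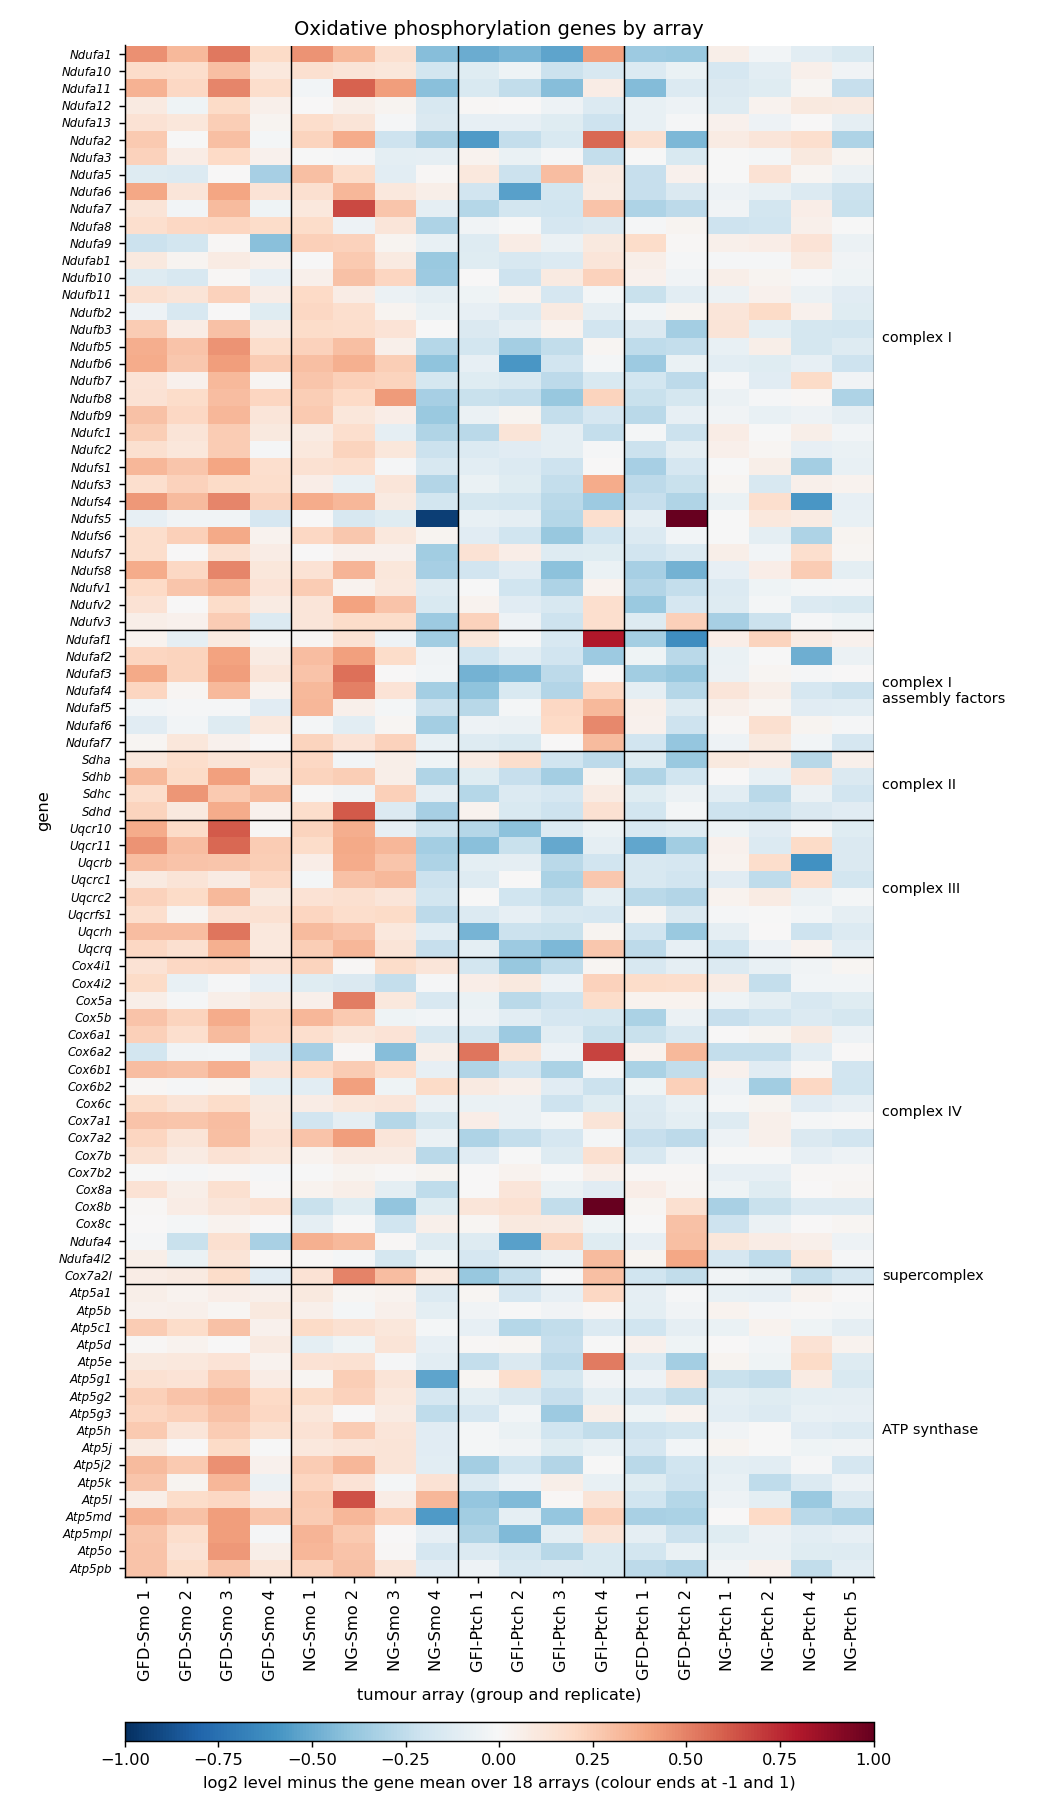
Level of each of the 89 genes on each of the 18 arrays, as the log2 difference from that gene's own mean over the arrays, ordered by complex. The high values of GFD-Smo replicate 3 and the low values of NG-Smo replicate 4 run through most complexes, and the strongest cells are Ndufs5 in GFD-Ptch replicate 2 and Cox8b in GFI-Ptch replicate 4.

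The largest set of changes was between the tumours of the GFD subtype in the Smo and Ptch models. These groups also differ in the Cre label and, on most arrays, in the Y-linked level. In GFD-Smo against GFD-Ptch tumours, 30 of the 89 genes rose and 0 fell. Over all genes, 8.5% rose and 7.1% fell in this comparison, and 11.7% rose among the 4921 genes above the upper quartile of level. The median log2 difference of the 89 genes was 0.33, against -0.06 over all genes, and 75 of the 89 differences were above 0. At an unadjusted p under 0.05, 57 were higher and 2 lower, against 14.6% and 18.7% of all genes. The arrays of the groups did not overlap for 67 genes that were higher and 1 that was lower, against 23.4% higher and 33.7% lower over all genes. GFD-Ptch has only 2 arrays, and each mattered: 10 genes rose and 1 fell without replicate 1 (4.94% and 3.66% of all genes), and 11 rose and 0 fell without replicate 2 (2.79% and 2.21%). The gene that fell was Ndufs5, whose difference on all arrays, -0.93, was the largest of the 89 in size and was not called (adjusted p = 0.0795, limma). With each array centred on its median, 23 rose and 3 fell, Ndufs5 (-1.02), Ndufa9 (-0.39) and Cox4i2 (-0.27), against 6.95% and 27.2% of all genes. Atp5g2, Atp5pb, Cox6a1, Cox6b1, Cox7a1, Ndufv1 and Uqcrc2 were the 7 genes called in every fit that left out 1 array. Without the 3 arrays that went against their gender label, 16 rose and 1 fell (5.23% and 3.41% of all genes), and without both arrays that stood apart 55 rose and 2 fell, where 2764 of all 19938 genes rose and 3194 fell.

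**Figure D3:**
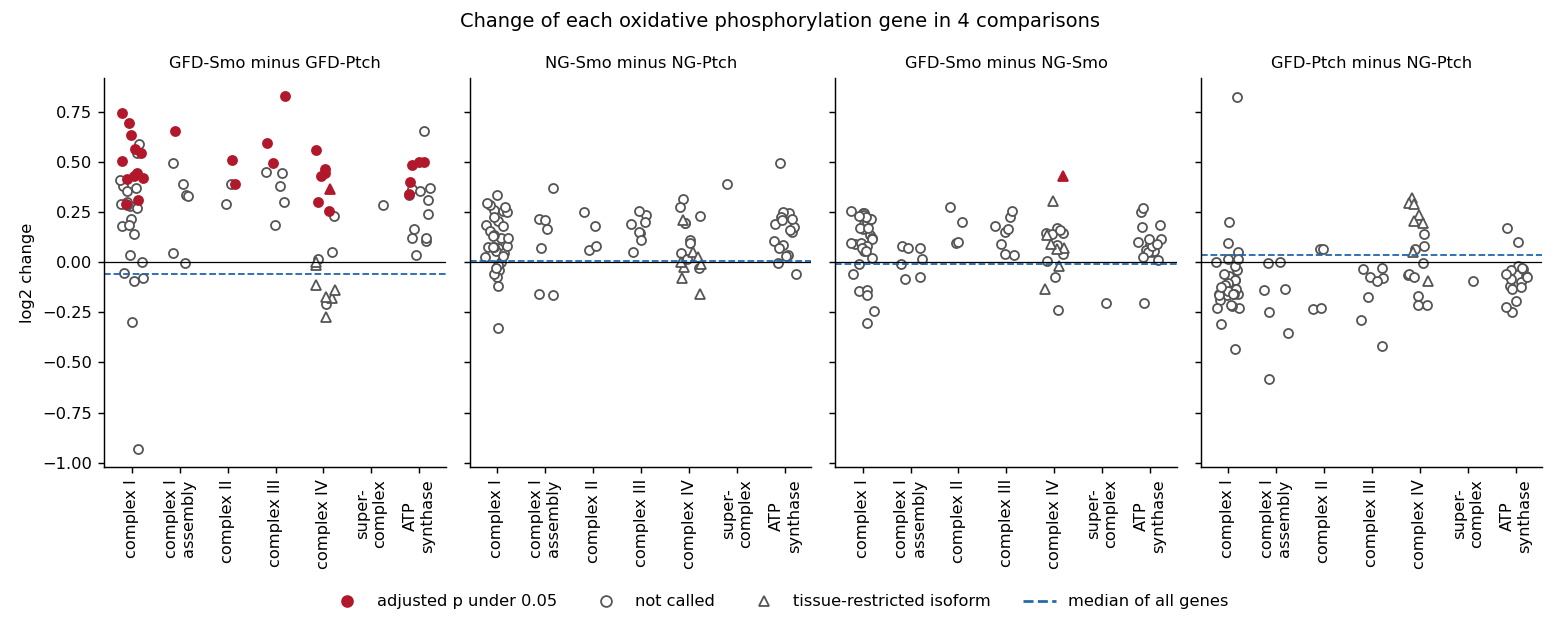
Log2 difference of each gene in 4 comparisons, grouped by complex, with filled points for called genes and the dashed blue line at the median of all genes. In GFD-Smo minus GFD-Ptch the points of complexes I, II and III and of ATP synthase lie mostly above the line, and the tissue-restricted complex IV isoforms, drawn as triangles, lie below 0 except Cox7a1 at 0.36.

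In complex III, which passes electrons from ubiquinol to cytochrome c, 3 of 8 subunits rose and all 8 differences were above 0, with a median of 0.45. Uqcr11, a small accessory subunit, had the largest rise of the 89 genes. It read 11.02, 10.89, 11.15 and 10.83 in the GFD-Smo tumours, against 10.06 and 10.23 in the GFD-Ptch tumours. The groups did not overlap, and the difference of 0.83 ± 0.17 (SE) is a 1.77-fold higher signal (limma adjusted p = 0.00517). Its means over the other groups were 10.72 ± 0.33 in the NG-Smo tumours, 10.27 ± 0.19 in those of GFI-Ptch and 10.56 ± 0.16 in those of NG-Ptch (SD, n = 4 each). Leaving out 1 array took its adjusted p to between 0.000614 and 0.0588. Uqcrh, the hinge protein that docks cytochrome c, rose by 0.59 (adjusted p = 0.00997, limma). Uqcrc2, a core protein, rose by 0.49 with the smaller standard error of 0.09 (adjusted p = 0.00281, limma). The narrowest spread of the complex was that of Uqcrfs1, the Rieske iron-sulfur protein, whose difference of 0.18 was not called (adjusted p = 0.223, limma).

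The promoters of Uqcr11 and of Cox6a1, a complex IV subunit that also rose, are shown because both hold motifs of the factors known to drive nuclear respiratory genes, NRF1 and the ETS family. They run from 250 bases before to 50 after the gene start in RefSeq's GRCm38.p6 annotation, on the minus strand at chr10:80406772-80407071 and chr5:115348909-115349208. Capitals mark matches, on either strand, to GCATGCGC (NRF1), CCGGAAG (ETS) and ACGTG (hypoxia-inducible factors).
Uqcr11: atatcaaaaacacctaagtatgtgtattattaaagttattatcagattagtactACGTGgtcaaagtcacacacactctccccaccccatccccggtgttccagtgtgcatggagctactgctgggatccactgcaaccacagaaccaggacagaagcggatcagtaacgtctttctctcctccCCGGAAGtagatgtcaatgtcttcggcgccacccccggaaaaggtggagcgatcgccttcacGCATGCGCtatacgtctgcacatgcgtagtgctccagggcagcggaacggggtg
Cox6a1: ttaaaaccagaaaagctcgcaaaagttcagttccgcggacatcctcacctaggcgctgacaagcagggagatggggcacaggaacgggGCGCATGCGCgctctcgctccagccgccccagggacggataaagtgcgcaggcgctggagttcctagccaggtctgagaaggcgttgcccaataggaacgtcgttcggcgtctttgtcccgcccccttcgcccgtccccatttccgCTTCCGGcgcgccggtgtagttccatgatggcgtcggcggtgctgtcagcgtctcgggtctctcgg
In Uqcr11 the NRF1 letters begin at -4 and the ETS letters at -66 from the start, and ACGTG begins at -196. In Cox6a1 the NRF1 letters begin at -162 and -160, on opposite strands and overlapping, and the ETS letters begin at -16. Of the 89 genes, 73 had a promoter in the table. The NRF1 letters were in 12 of the 73 (16.4%), against 3.05% of 27025 genes, and the ETS letters in 18 (24.7%), against 9.93%. AAGATGGCG, the YY1 motif, was in 7 (9.59%), against 1.64%, and TCAAGGTCA, the motif of the oestrogen-related receptor ESRRA, in 2 (2.74%), against 0.466%. ACGTG was in 18 (24.7%), against 21.8% of all genes. Of the 30 genes that rose, 24 had a promoter. Among these 24, the NRF1 letters were in 5, the ETS letters in 8, ACGTG in 7, the YY1 letters in 2 and the ESRRA letters in 0. In the same order, the 73 members held them in 12, 18, 18, 7 and 2. These are matches of letters and not measured binding.

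In complex I, the NADH dehydrogenase at the entry of the chain, 12 of 34 subunits rose and the median difference was 0.30. The called subunits included Ndufs1, Ndufs8 and Ndufv1, which carry iron-sulfur clusters, and Ndufs3, all of the catalytic core. Ndufs8 read 11.50, 11.33, 11.61 and 11.24 in the GFD-Smo tumours, against 10.80 and 10.66 in the GFD-Ptch tumours. That is a difference of 0.69 ± 0.16 (SE) with no overlap (adjusted p = 0.00866, limma). Ndufv1, which binds NADH, rose by 0.50 (adjusted p = 0.00424, limma), and Ndufs1, the largest core subunit, rose by 0.54 (adjusted p = 0.00445, limma). Ndufs4, an accessory subunit whose loss causes a Leigh-like disease in mice, rose by 0.63 (adjusted p = 0.0208, limma) and Ndufb5, of the membrane arm, by 0.57 (adjusted p = 0.011, limma). Ndufa1 rose by 0.74 (adjusted p = 0.048, limma), a call that was lost under 16 of the alternative fits. It read 8.97, 8.84, 9.04 and 8.70 in the GFD-Smo tumours, against 8.15 and 8.14 in the GFD-Ptch tumours. The remaining calls were Ndufa6, Ndufa10, Ndufb3, Ndufb9 and Ndufb11, with differences between 0.29 and 0.45. Ndufa12 had the narrowest range of complex I, and its difference of 0.14 was not called (adjusted p = 0.228, limma).

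Of the 7 complex I assembly factors, Ndufaf3 alone was called. It read 10.40, 10.24, 10.44 and 10.14 in the GFD-Smo tumours, against 9.67 and 9.64 in the GFD-Ptch tumours, and rose by 0.65 (adjusted p = 0.00866, limma). Ndufaf1, which builds the membrane arm, differed by 0.49 (adjusted p = 0.094, limma). Ndufaf5, with the narrowest range of these factors, differed by less than 0.01.

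Complex II, succinate dehydrogenase, is shared with the tricarboxylic acid cycle, and 2 of its 4 subunits rose. Sdhb, the iron-sulfur subunit, read 11.10, 10.97, 11.18 and 10.88 in the GFD-Smo tumours, against 10.47 and 10.57 in the GFD-Ptch tumours. It rose by 0.51 (adjusted p = 0.023, limma), and Sdhc, a membrane anchor, rose by 0.39 (adjusted p = 0.0215, limma). Sdha, the flavoprotein, differed by 0.39 and just missed the threshold (adjusted p = 0.0501, limma). Sdhd, the other anchor, differed by 0.29 (adjusted p = 0.277, limma). All 4 subunits were higher on every GFD-Smo array than on either GFD-Ptch array.

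In ATP synthase, 5 of 17 subunits rose and all 17 differences were above 0, with a median of 0.34. Atp5g2, which codes for the c subunit of the membrane rotor, read 12.57, 12.61, 12.65 and 12.53 in the GFD-Smo tumours, against 12.13 and 12.08 in the GFD-Ptch tumours. Its difference of 0.48 ± 0.09 (SE) had the lowest adjusted p of the 89 genes (0.00162, limma). The other c subunit genes differed by 0.12 (Atp5g1) and 0.24 (Atp5g3) and were not called. Atp5pb, of the peripheral stalk, rose by 0.50 (adjusted p = 0.00313, limma), and Atp5h, Atp5j2 and Atp5c1, the gamma subunit, were also called. Atp5b, the catalytic beta subunit, varied least of the complex, between 13.08 and 13.27 over the 18 arrays. Its difference was 0.12 (adjusted p = 0.12, limma).

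In complex IV, 6 of the 10 widely expressed subunits rose, with a median of 0.28 over the 10, against a median of -0.13 over the 8 tissue-restricted isoforms. Cox6b1 read 12.15, 12.13, 12.20 and 11.98 in the GFD-Smo tumours, against 11.52 and 11.59 in the GFD-Ptch tumours. It rose by 0.56 ± 0.10 (SE; adjusted p = 0.00229, limma), and its testis partner Cox6b2 differed by -0.12. Cox6a1 rose by 0.43 (adjusted p = 0.0043, limma), and its muscle partner Cox6a2 differed by -0.27 and was lower on every GFD-Smo array. Cox4i1 rose by 0.30 (adjusted p = 0.0311, limma), and its lung partner Cox4i2 differed by -0.18. Cox7a2 rose by 0.45 (adjusted p = 0.0144, limma). Cox5b and Cox6c were the other called genes. Cox7b, Cox8a and Ndufa4 differed by 0.23, 0.05 and -0.21. Their partners Cox7b2, Cox8c and Ndufa4l2 differed by -0.02, -0.14 and -0.17, and Cox8b by less than 0.01. None of these 7 was called. Cox7a1 was the single tissue-restricted isoform that rose, by 0.36 (adjusted p = 0.00419, limma).

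**Figure D4:**
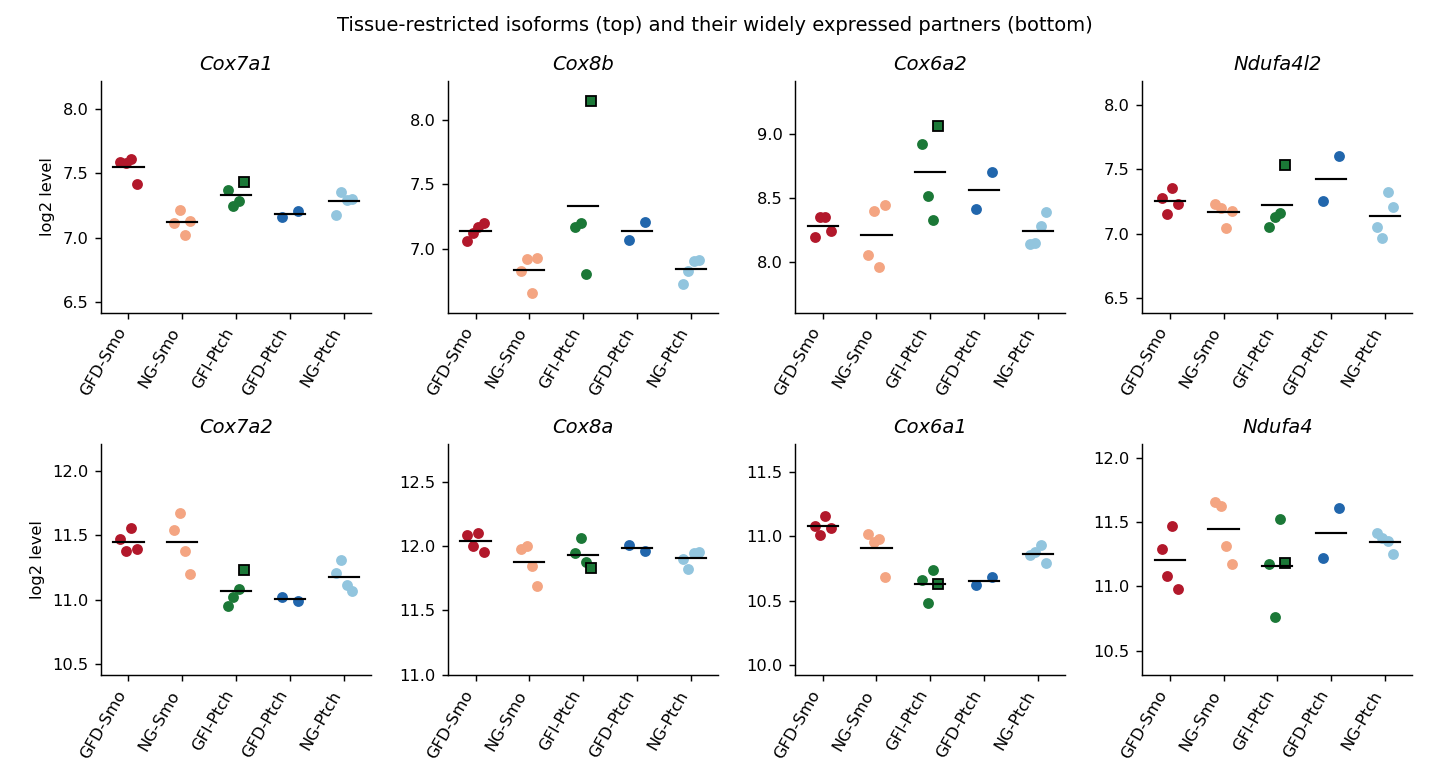
Log2 intensity of 4 tissue-restricted complex IV isoforms (top) and their widely expressed partners (bottom) on every array, by group from GFD-Smo to NG-Ptch, with lines at group means. The 4 GFD-Smo arrays lie between 7.41 and 7.61 for Cox7a1, above the NG-Smo arrays at 7.02 to 7.22, and the square, GFI-Ptch replicate 4, stands out for Cox8b at 8.15.

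Cox7a1, the heart and muscle isoform of subunit VIIa, was the only one of the 89 genes called between the subtypes of the Smo tumours. It read 7.59, 7.58, 7.61 and 7.41 in the GFD-Smo tumours, against 7.11, 7.22, 7.02 and 7.13 in the NG-Smo tumours. The arrays did not overlap, and the difference of 0.43 ± 0.06 (SE) is 1.35-fold (adjusted p = 0.000565, limma). It read 7.37, 7.25, 7.28 and 7.43 in the GFI-Ptch tumours and 7.16 and 7.21 in the GFD-Ptch tumours. It read 7.18, 7.36, 7.29 and 7.30 in the NG-Ptch tumours. Its levels lie below the median of all genes, so that it dropped out where dim genes were filtered. The GFD minus NG difference was also larger in the Smo than in the Ptch tumours, by 0.52 ± 0.10 (SE; adjusted p = 0.00783, limma). With the Y-linked level as covariate it was 0.47 and not called (adjusted p = 0.0744, limma). Without the 3 arrays against their gender label, Cox7a1 was still the only gene called in both of these tests. That test of the difference called 1 of the 89 genes higher and 0 lower, against 2.4% higher and 1.4% lower over all genes. At an unadjusted p under 0.05 it gave 19 higher and 1 lower, against 9.23% and 10.9% of all genes. The mean of 18 skeletal muscle markers was 7.67 to 7.93 in the GFD-Smo tumours, against 7.14 to 7.63 in the NG-Smo tumours. Of these markers, 0 were called and 17 of 18 differences were above 0, and their part in the Cox7a1 result was not tested. Pericyte markers averaged 8.57 to 8.83 in the GFD-Smo tumours, against 8.06 to 8.57 in the NG-Smo tumours. Of these 10 markers 4 rose and 0 fell, against 2.81% higher and 2.49% lower over all genes. The 4 were Vtn (1.05), Atp13a5 (1.04), Pdgfrb (0.74) and Notch3 (0.53). The part of these markers in the Cox7a1 result was not tested.

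The promoter of Cox7a1, at chr7:30183921-30184220 on the plus strand, is set beside a window of its partner Cox7a2. That window is chr9:79759804-79760103 on the minus strand. Both are shown because the muscle form was called in GFD-Smo against NG-Smo tumours and the common form was not. The window length, build and capitals are those used for Uqcr11. The Cox7a2 window lies inside the RefSeq span of the gene, chr9:79755241-79771422, and not at the outer end of that span.
Cox7a1: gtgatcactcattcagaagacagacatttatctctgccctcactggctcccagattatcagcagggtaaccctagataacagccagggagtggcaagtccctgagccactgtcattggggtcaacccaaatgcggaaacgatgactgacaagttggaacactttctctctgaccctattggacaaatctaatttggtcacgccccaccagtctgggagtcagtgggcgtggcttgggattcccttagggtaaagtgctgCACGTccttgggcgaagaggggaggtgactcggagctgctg
Cox7a2: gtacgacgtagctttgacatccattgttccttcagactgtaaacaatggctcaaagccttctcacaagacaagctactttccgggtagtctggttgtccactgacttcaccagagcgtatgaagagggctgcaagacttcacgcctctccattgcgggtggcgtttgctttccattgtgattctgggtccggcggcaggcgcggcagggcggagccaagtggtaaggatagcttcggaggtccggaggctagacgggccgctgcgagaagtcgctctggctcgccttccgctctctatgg
Cox7a1 holds ACGTG on the opposite strand at 10 and neither the NRF1 nor the ETS letters. The Cox7a2 window printed here holds none of the 3 motifs. The GC content of the windows is 53.0% and 56.7%.

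Apart from Cox7a1, the respiratory genes differed little between GFD-Smo and NG-Smo tumours. Called genes were 1 higher and 0 lower of the 89, against 2.81% higher and 2.49% lower over all genes. At an unadjusted p under 0.05, 13 were higher and 3 lower, against 7.72% and 8.2%. The median difference was 0.09, and 73 of the 89 differences were above 0. The median was 0.03 without NG-Smo replicate 4, 0.06 without GFD-Smo replicate 3 and 0.14 without NG-Smo replicate 2. Cox7a2 differed by less than 0.01. Ndufa9, a complex I subunit with an NADPH-binding fold, had the largest difference downwards, -0.31 (adjusted p = 0.0724, limma).

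Between NG-Smo and NG-Ptch tumours, 0 of the 89 genes were called in limma, and over all genes 0.607% rose and 0.436% fell. At an unadjusted p under 0.05, 20 were higher and 1 lower, against 5.36% and 5.25% of all genes, the median difference was 0.12, and 72 of 89 differences were above 0. NG-Smo replicate 4 was low for many of them. Without it 6 genes rose and 0 fell, and the 6 were Atp5g2, Atp5pb, Cox5b, Cox7a2, Ndufv2 and Uqcrfs1, with differences of 0.23 to 0.38, against 1.26% of all genes higher and 0.667% lower in that fit. The median difference was then 0.20. Without both arrays that stood apart, 17 rose and 0 fell, against 3.72% and 2.14% of all genes. Of the 6 genes, Uqcrfs1 is an example: it read 9.18, 9.14, 9.16 and 8.70 in the NG-Smo tumours, against 8.95, 8.96, 8.93 and 8.88 in the NG-Ptch tumours. The largest differences on all arrays were 0.49 for Atp5l (adjusted p = 0.098, limma) and 0.39 for Cox7a2l (adjusted p = 0.184, limma). The dimmer Cox7a2l probe set, which was not used, did not show this rise. It averaged 8.14 in the NG-Smo and 8.18 in the NG-Ptch tumours. The largest differences downwards were -0.33 for Ndufs5 and -0.16 for Ndufaf1.

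Among the 3 subtypes of Ptch tumours no respiratory gene was called in limma, with or without the 3 arrays against their gender label. For GFD-Ptch against NG-Ptch the counts were 0 higher and 0 lower of the 89, against 0.00502% in each direction over all genes. At an unadjusted p under 0.05, 4 were higher and 6 lower, against 10.4% and 6.56% of all genes. The median difference was -0.09 and 69 of 89 differences were below 0, against 0.04 over all genes. The largest differences were 0.82 for Ndufs5, 0.32 for Cox6a2, -0.58 for Ndufaf1 and -0.43 for Ndufs8, with adjusted p between 0.203 and 0.354. Ndufaf1 read 9.12 and 8.84 in the GFD-Ptch tumours, against 9.52, 9.68, 9.54 and 9.50 in the NG-Ptch tumours, with no overlap. It was called lower without GFI-Ptch replicate 4, with the same difference of -0.58.

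For GFI-Ptch against NG-Ptch, 0 were called, as over all genes (0.0% in each direction), and at an unadjusted p under 0.05, 2 were higher and 3 lower, against 3.6% and 4.93% of all genes. The median difference was -0.05. The largest differences were 0.49 for Cox8b, 0.46 for Cox6a2, -0.30 for Uqcr11 and -0.28 for Ndufaf3. For GFI-Ptch against GFD-Ptch, 0 were called, against 0.0% higher and 0.00502% lower over all genes, and at an unadjusted p under 0.05, 2 were higher and 1 lower, against 4.23% and 5.56% of all genes. The median difference was 0.05, and without GFI-Ptch replicate 4 it turned to -0.0035. The largest differences were 0.67 for Ndufaf1, 0.30 for Ndufaf7, -0.92 for Ndufs5 and -0.26 for Ndufa4.

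The highest values of the muscle forms in the GFI-Ptch group were in replicate 4, the tumour with an NSG host. Cox8b read 8.15 in GFI-Ptch replicate 4 and 7.17, 7.20 and 6.80 in the other 3 arrays. Cox6a2 read 9.06 there and 8.92, 8.51 and 8.33 in the others. The muscle markers averaged 9.73 in that tumour, and the lowest GFI-Ptch array had 7.16. Ndufa1, which has no muscle form, read 8.92 there and 8.01, 8.05 and 7.99 in the others. Without this array the Cox8b difference from NG-Ptch was 0.22 and that of Cox6a2 was 0.35, neither called. The part of muscle tissue in these values was not tested.

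Ndufs5, a small accessory subunit of complex I, had the widest range of the 89 genes. It read 10.76 in GFD-Ptch replicate 2 and between 8.03 and 9.14 on the other 17 arrays, GFD-Ptch replicate 1 among them at 8.88. A second probe set, shared with the pseudogene Ndufs5-ps, read 8.40 and 10.25 in GFD-Ptch replicates 1 and 2. The GFD-Ptch minus NG-Ptch difference of 0.82 turned to -0.12 without replicate 2. Ndufs5 lies on chromosome 4 between Macf1 and Akirin1 in the order of measured genes, and the oncogene Mycl lies 10 places before it. Some of the neighbours of Ndufs5 were high in the same tumour. Among the 41 measured genes from 20 before to 20 after Ndufs5, 12 were at least 1 above the median of the other 17 arrays, against 55 of all 19938 genes (0.276%). They were Ppt1, Cap1, Mfsd2a, Mycl, Trit1, Ppie, Macf1, Ndufs5, Akirin1, D130007C19Rik, Mycbp and Rragc. Trit1 read 11.27 in this tumour and at most 9.56 elsewhere, and Mycl read 11.37 and at most 10.40. Ndufs5 was the single member of the 89 at least 1 above. The window was chosen after these values were seen.

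**Figure D5:**
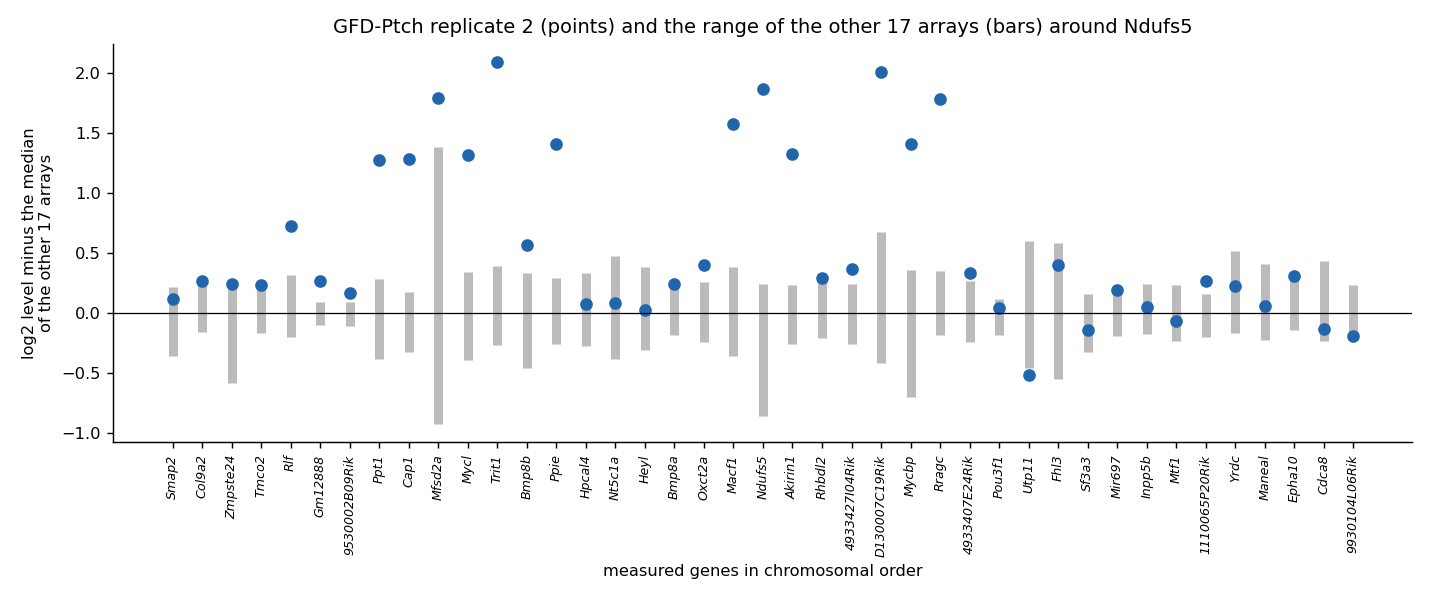
Log2 level minus the median of the other 17 arrays for the 41 measured genes in gene order around Ndufs5, with GFD-Ptch replicate 2 as points and the range of the other 17 arrays as bars. The genes from Ppt1 to Rragc include 12 that lie at least 1 above the median of the other arrays, and Ndufs5 reads 10.76, above the others' highest value of 9.14.

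Levels of other members differed by chromosome. Each of 9996 genes above the median level was set against its own median over the arrays, and the medians per chromosome passed 0.1 in size in 22 of 360 pairs of chromosome and array. Genes of chromosome 6 lay at -0.30, -0.28, -0.27 and -0.30 in the GFD-Smo tumours, against 0.35 and 0.17 in the GFD-Ptch tumours. In GFD-Smo minus GFD-Ptch, 33.3% of the 1101 genes of chromosome 6 fell and 2.82% rose. The 4 respiratory genes of this chromosome were Ndufa4, Ndufa5, Ndufa9 and Ndufb2, and all 4 differences were below 0, between -0.30 and -0.06, with 0 called. On the other chromosomes 30 of 85 respiratory genes rose (35.3%), against 8.84% of 18807 genes. Ndufa9 read 10.91, 10.94, 11.14 and 10.71 in the GFD-Smo tumours, against 11.31 and 11.14 in the GFD-Ptch tumours. It was called lower when each array was centred on its median (-0.39), and without the 3 arrays against their gender label (-0.41).

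Chromosomes 9 and 17 stood out in the NG-Smo tumours. Genes of chromosome 9 lay at 0.30 in NG-Smo replicate 2, and the 6 respiratory genes there at 0.52. Those of chromosome 17 lay at 0.25 in NG-Smo replicate 2 and 0.32 in replicate 3, and the 7 respiratory genes there at 0.41 and 0.30. Respiratory genes of other chromosomes were also high in NG-Smo replicate 2. Those of chromosomes 3, 4, 11 and 13 lay at 0.28 to 0.33, where all genes of these chromosomes lay between -0.01 and 0.07. The respiratory genes of chromosomes 2 and 10 lay at 0.04 and 0.004. Atp5l (chromosome 9) read 10.41 and Cox7a2l (chromosome 17) read 9.98 in NG-Smo replicate 2, the highest values of both on the probe sets used. Genes of chromosome 13 were at -0.23 in GFI-Ptch replicate 4 and -0.12 in GFD-Ptch replicate 2. The 6 respiratory genes of chromosome 13 lay at -0.25 and -0.19 on these arrays. In GFD-Ptch replicate 2 most other chromosomes also lay below 0, with X at -0.12 and chromosome 16 at -0.11. The respiratory genes of chromosomes 3 and 19 lay at -0.24 and -0.23 on that array. In GFI-Ptch replicate 4 the genes of chromosomes 2, 9, 17, 18 and X lay between 0.12 and 0.33, and Ndufaf1 (chromosome 2) read 10.26 and Ndufa1 (X) 8.92 there. These comparisons by chromosome were chosen after the values were seen.

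Genes that work with the complexes moved in part with them in GFD-Smo against GFD-Ptch tumours. Each count below stands beside shares of 8.5% higher and 7.1% lower over all genes in this comparison. Of 35 other assembly factors, 8 rose and 2 fell. The largest changes were in Surf1 (0.81) and Cox20 (0.63), which help assemble complex IV, and Tmem126b (0.64), which serves complex I. Of 14 electron carrier genes 6 rose, among them Coq3 (0.77) and Coq9 (0.63) of ubiquinone synthesis and Etfb (0.71), which feeds electrons from fatty acid oxidation. Of 14 genes of the tricarboxylic acid cycle 4 rose and 1 fell, with Pcx, pyruvate carboxylase, at 1.18, Dld at 0.56 and Fh1 at 0.47. Suclg1 fell by 0.40. Of 11 pyruvate entry genes, Pdk4 (1.24), a kinase that holds back pyruvate dehydrogenase, and Pdhx (0.41) rose. Of the 77 mitochondrial ribosomal protein genes 13 rose and 4 fell, and of 67 cytosolic ribosomal protein genes 13 rose and 1 fell. The 2 mitochondrially encoded subunits on the array, COX2 and ND3, were not called.

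Among 16 regulators of mitochondrial biogenesis, Ppargc1a alone was called in GFD-Smo against GFD-Ptch tumours. Over all genes 8.5% rose and 7.1% fell there, so 1 of 16 is not above the share of all genes. Ppargc1a codes for PGC-1 alpha, the coactivator known to raise respiratory genes. It averaged 8.99 ± 0.22 in GFD-Smo (SD, n = 4), against 7.34 ± 0.37 in GFD-Ptch (n = 2), and rose by 1.66 (adjusted p = 0.000675, limma). It averaged 8.03 ± 0.29 in NG-Smo and also rose in GFD-Smo against NG-Smo tumours, by 0.96 (adjusted p = 0.0144, limma). Its level was 7.57 ± 0.51 in GFI-Ptch and 8.17 ± 0.13 in NG-Ptch (n = 4 each).

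Glycolysis genes went both ways in GFD-Smo against GFD-Ptch tumours, where 8.5% of all genes rose and 7.1% fell. Of 18, Aldoc (4.09) and Slc16a1 (1.05) rose, and the glucose transporter Slc2a3 (-1.32), the lactate exporter Slc16a3 (-0.44) and hexokinase Hk2 (-0.41) fell. Aldoc is also an astrocyte marker. Of 14 hypoxia-induced genes 3 fell, Kdm3a (-0.95), Bnip3 (-0.93) and Car9 (-0.31), and their mean was 8.66 to 8.77 in the GFD-Smo tumours, against 8.96 and 9.29 in the GFD-Ptch tumours.

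Markers of other cells were also called in GFD-Smo against GFD-Ptch tumours, beside the 8.5% of all genes that rose and 7.1% that fell. Of 10 astrocyte markers 9 rose and 0 fell, with a median of 2.39, and their mean was 11.36 to 11.49 in the GFD-Smo tumours, against 9.002 and 9.170 in the GFD-Ptch tumours. Of 10 pericyte markers 5 rose and of 14 microglia and macrophage markers 5 rose. Of 7 oligodendrocyte markers only Cnp (2.85) and Ugt8a (1.30) rose, of 7 choroid plexus markers only Clic6 (2.16), and of 10 endothelium markers only Kdr (0.67). The choroid plexus markers averaged 9.36 in GFD-Smo replicate 2 and 7.69 to 7.80 in the other GFD-Smo tumours. Among 8 differentiated neuron markers Nefl (2.02) and Nefm (0.57) rose and Rbfox3 (-0.59) fell. Of 12 granule neuron progenitor markers 0 rose and 2 fell, Ccnd2 (-1.07) and Neurod1 (-0.49). The astrocyte markers also rose in GFD-Smo against NG-Smo tumours, 6 of 10 with a median of 1.32, where the respiratory genes had a median of 0.09. Over all genes 2.81% rose and 2.49% fell there. Of the 14 microglia and macrophage markers Lyz2 (-1.79), Ptprc (-1.10), Ctss (-1.02) and Aif1 (-0.35) fell in that comparison. The part of these cells in the respiratory gene result was not tested.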

How the data were processed

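Total RNA of 18 mouse medulloblastomas was labelled with biotin from whole-transcript cDNA, per the labels' protocols. The authors deposited log2 values per probe set, 35556 on each array, and Partek 6.6 is named in the submitters' processing notes. Background correction, normalization and genome build are not given in the sources used here, and intensities before processing were not used here. The array medians differ by less than 0.2, and depth has no counterpart on arrays, where the number of arrays limits precision.

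Of the probe sets, 21789 carried 1 gene symbol, 1621 several and 12146 none here. A gene's brightest probe set, by its average over the 18 arrays, stood for it, giving 19938 genes. The 89 members had 114 probe sets, and 17 members had several. The sign of GFD-Smo minus GFD-Ptch was the same for all 25 probe sets not used. Cox7c and Ndufb4 lie only on probe sets with several symbols and are not members. Subunits with processed pseudogenes, such as Atp5l with 6 probe sets, may share signal with these copies.

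Group means of all 5 groups were fitted with limma 3.58.1 in R 4.3.3 (13 residual degrees of freedom), with eBayes and Benjamini-Hochberg adjustment over all genes, for 7 comparisons. Correct recovery was tested on simulated data. Symbols, chromosomes and promoters came from RefSeq tables, and all 89 members matched by Entrez ID. The members and lists were chosen with earlier results of these data known. Named were the tissue-restricted isoforms and partners, complex II, up to 8 largest changes per direction among called members, the 2 largest each way where none was called, the widest and narrowest range per complex, and up to 3 called genes per list. Other genes named were chosen after their values were seen. Alternatives were quantile normalization, median centring, a filter on dim genes, the mean of probe sets, array weights, a trended robust prior, only the compared groups, gender, a replicate block and each array left out. Leaving out the arrays that stood apart or went against gender, and the Y-linked level as covariate, were added after seeing the data.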

Additional observations from a re-analysis of the deposited data

Results flagged for a closer look

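Arrays were compared within each group of 4 for the named members and for the median of the 89 genes, and in 8 of 144 such groups 1 array lay far from the other 3. Chance gives about 1 such group in 20, so 8 of 144 is near the chance share and the arrays below are given as values only. Cox7a1 was 7.41 in GFD-Smo replicate 4, with 7.58 to 7.61 in the others. Uqcrfs1 was 8.99 in GFD-Smo replicate 2 (9.11 to 9.13 in the others) and 8.70 in NG-Smo replicate 4 (9.14 to 9.18). Cox7b was 12.35 in NG-Smo replicate 4 (12.65 to 12.71), and the median of the 89 genes there was 10.41 (10.83 to 10.84). Ndufa1 was 8.92 in GFI-Ptch replicate 4 (7.99 to 8.05). Sdha was 10.89 in NG-Ptch replicate 4 (11.21 to 11.26), while the median of the 89 genes there was 10.76 (10.61 to 10.63).

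The GFD minus NG difference was tested for a difference between the Smo and the Ptch tumours with limma, and of 230 genes tested in the respiratory and metabolic lists 8 were called higher (3.48%) and 2 lower (0.87%), against 2.4% and 1.4% of all genes. Among the 89 genes this was Cox7a1, at 0.52. Among the assembly factors Surf1 differed by 0.78, Uqcc3 by 0.76, Cox20 by 0.67 and Acad9 by 0.38, all with the larger GFD minus NG value in the Smo tumours. Ppargc1a differed by 1.80, Pcx by 1.47 and Aldoc by 4.39 in the same direction. Slc2a3 differed by -0.995 and Kdm3a by -0.88, in the opposite direction. The adjusted p of these 10 genes lay between 0.00268 and 0.0311. Each of these differences rests on 2 GFD-Ptch arrays.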

How the results depend on the processing

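Over 210 alternatives to the 7 comparisons, the median change of the 89 genes moved by over 1.5 times in 25 and turned its sign in 3, all of GFI-Ptch minus GFD-Ptch (0.05, and -0.0035 without GFI-Ptch replicate 4, alone or with others). The median of GFD-Smo minus GFD-Ptch was in neither group. Of 210 counts of called genes, 38 moved by over 1.5 times. For GFD-Smo minus GFD-Ptch the 30 calls became 58 with array weights, 56 with only the groups compared, 57 without both arrays that stood apart and 17 without the 3 arrays against their gender label. Leaving out 1 array gave 11 to 45 calls, and the median change then lay between 0.29 and 0.35. For GFD-Smo minus NG-Smo the 1 call became 3 with quantile normalization and 2 with median centring, array weights, only the groups compared or gender as covariate. It became 0 with the filter on dim genes, which removed Cox7a1, and 4 without both arrays that stood apart. In these fits 2.44% to 4.25% of all genes rose and 2.64% to 4.54% fell. Leaving out 1 array gave 1 to 4, where 1.83% to 4.13% of all genes rose and 1.4% to 3.66% fell. For the difference between Smo and Ptch the 1 call became 3 with quantile normalization, 0 with the filter and 6 with array weights. It became 4 with only the groups compared or without both arrays, and 0 with the Y-linked level as covariate. In these fits 0.612% to 4.43% of all genes were called higher and 0.186% to 3.19% lower. Leaving out 1 array gave 1 to 4, against 0.632% to 3.82% of all genes higher and 0.612% to 2.62% lower. For NG-Smo minus NG-Ptch the 0 calls became 2 with array weights and 17 without both arrays, and leaving out 1 array gave 0 to 6. Over all genes 1.28% rose and 0.818% fell with array weights, and 3.72% and 2.14% without both arrays. Leaving out 1 array gave 0.231% to 1.26% of all genes higher and 0.145% to 0.767% lower. For GFD-Ptch minus NG-Ptch the 0 calls became 1 with array weights, 2 with only the groups compared and 2 without both arrays. Over all genes 1.34% rose and 1.49% fell with array weights, 0.251% and 0.978% with only the groups compared, and 1.64% and 1.82% without both arrays. Leaving out 1 array gave 0 to 1, against 0.00502% to 0.311% of all genes higher and 0.0% to 0.411% lower. For GFI-Ptch minus NG-Ptch the 0 calls became 1 with array weights, where 0.291% of all genes rose and 0.612% fell. For GFI-Ptch minus GFD-Ptch leaving out 1 array gave 0 to 1, against 0.0% to 0.0953% of all genes higher and 0.00502% to 0.14% lower. Ndufs5 changed sign without GFD-Ptch replicate 2, to -0.12 for GFD-Ptch minus NG-Ptch and 0.020 for GFI-Ptch minus GFD-Ptch, and was called without replicate 1, at 1.77 and -1.86. Unless stated, the cause was not tested.

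The labels name no pairing by replicate number. In their deviations from the group means, same-numbered arrays of different groups had a median correlation of -0.03 over 29 pairs, from -0.31 to 0.19. Pairs with different numbers had a median of 0.02. The deviations of the 2 GFD-Ptch arrays mirror each other, so these values cannot show whether same-numbered samples were handled together. With the replicate block, 27 genes rose and 0 fell in GFD-Smo minus GFD-Ptch, against 6.63% and 4.49% of all genes. The other comparisons kept their counts of 1 or 0. Arrays of 2 GFD-Ptch tumours, a single assay without raw signal, and subtype tied to Cre driver limit what the comparisons can resolve.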

Other observations

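Cox7c, a small complex IV subunit, was read only by 3 probe sets that it shares with Gm12338. On one of them it read 12.60 in NG-Ptch replicate 4, against 12.97, 12.99 and 12.93 in the other NG-Ptch tumours. The same array had low values of Ndufs4 (11.02), Uqcrb (11.16) and Sdha (10.89), all genes of chromosome 13 in RefSeq, against 11.52 to 11.77, 11.63 to 11.95 and 11.21 to 11.26 in the other NG-Ptch tumours. Genes of chromosome 13 above the median level lay at -0.078 on this array, and the 6 respiratory genes there at -0.395, the cause of which was not tested. Ndufb4, on 2 probe sets shared with Ndufb4b, read 11.96 to 12.56 in the NG-Smo tumours and 12.10 to 12.19 in the NG-Ptch tumours on the brighter of them. These genes were chosen after their values were seen.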
